A study of Mus musculus with 5 samples.

Results

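The proteasome genes of the mouse embryonic neural tube were examined in 5 RNA-seq samples. Every gene symbol made of Psma, Psmb, Psmc or Psmd and a number was taken, without regard to its values, which gave 39 of the 23284 genes in the count tables: 8 Psma, 11 Psmb, 6 Psmc and 14 Psmd genes. The samples were the neural tubes of 2 wild type (EpoR +/+), 1 heterozygote (EpoR +/-) and 2 EpoR-null (EpoR -/-) embryos from crosses of heterozygous mice, labelled as embryonic day 8.5. The study's methods state a slightly later stage. The 3 wild type and heterozygote littermates served together as controls, no sample was treated, and the receptor was lost from every cell of the EpoR-null embryo rather than from the neural tube alone. The comparison asked which transcripts differ in the neural tube when the receptor for erythropoietin, a hormone best known for red cell formation, is missing.

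The proteasome is the protease that degrades proteins tagged with ubiquitin. Its barrel-shaped core particle is built of outer rings of Psma (alpha) subunits and inner rings of Psmb (beta) subunits, of which Psmb5, Psmb6 and Psmb7 carry the cutting sites. The regulatory particle sits on the ends of the core: its base holds a ring of Psmc ATPases that unfold the substrate, with scaffold and ubiquitin-binding Psmd subunits, and its lid is made of further Psmd subunits, among them Psmd14, which removes the ubiquitin chain. In most cells the subunits are made in matched amounts, and proliferating tissues such as the early neural tube depend on the complex to remove cell cycle regulators.

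Reads counted on genes numbered 23014710 to 41169218 in the controls and 19316126 and 30378879 in EpoR-null 1 and 2, and levels are given as CPM, the reads of a gene relative to all reads counted on genes, scaled by TMM factors. In this unit 3 reads were worth 0.0715 to 0.152 CPM. Epor itself had 57 and 68 reads in wild type 1 and 2, 11 in the heterozygote, and 7 and 19 in EpoR-null 1 and 2, or 2.35, 1.62, 0.476, 0.354 and 0.669 CPM. Its log2 fold change was -1.51 with a false discovery rate (FDR) of 0.28, and the heterozygote lay between the EpoR-null samples, so Epor reads did not separate the genotypes. The direction of every difference below therefore rests on the genotype labels. The summed CPM of 12 neural progenitor markers was 2211 to 2489 in controls against 2137 and 1898 in EpoR-null 1 and 2, and Msi1, an RNA-binding protein of progenitors, was the 1 member of that list called, lower. Markers of other cells varied widely: 10 primitive erythroid genes summed to 44.6 in the heterozygote and 605 and 1096 in wild type against 1697 and 966 CPM in EpoR-null 1 and 2, and 9 neuronal genes to 361 to 595 against 1155 and 272 CPM. Neural crest genes summed to 651 to 809 CPM in controls against 949 and 1256, with 1 of 7, Crabp1, called higher. Crabp1 alone had 516, 674 and 607 CPM in wild type 1, wild type 2 and the heterozygote, against 772 and 1147. It made up most of each sum, and the groups overlapped in the other 6 genes. Among the erythroid and neuronal markers no gene had an unadjusted p under 0.05 in the exact test of edgeR, or was called by it or DESeq2. The same held for mesoderm (10.3 to 65.9 against 122 and 40.5 CPM), endothelium (12.4 to 297 against 255 and 143 CPM) and leukocytes (11.7 to 14.4 against 22.9 and 16.3 CPM). The part of these cells in the results below was not tested. In bulk samples fewer cells of a type and less RNA per cell cannot be told apart.

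The proteasome transcripts were abundant and leaned higher in the EpoR-null samples. The 39 genes took 0.651%, 0.676% and 0.662% of gene reads in wild type 1, wild type 2 and the heterozygote, against 0.723% and 0.809% in EpoR-null 1 and 2. A gene was tested when its CPM was above 1 in at least 2 samples, as 12703 genes were, including 35 of the 39 members. The exact test of edgeR, with a call at an FDR under 0.05 over all genes tested, called 2 members higher in the EpoR-null samples, Psma6 and Psmb4, and none lower. Over all genes it called 230 higher, or 1.81%, and 698 lower, or 5.49%. At an unadjusted p under 0.05 the test had 17 members, all of them higher, beside 2515 of all 12703 genes in either direction. DESeq2 at its own FDR called 13 members higher and 1, Psmd11, lower. Over 10485 genes it called 575 higher and 1162 lower. The log2 fold change was above 0 in 32 of 35 members, with a median of 0.32 against 0.06 over all genes. Both EpoR-null samples lay above all 3 controls for 26 of 35 members, where 21.2% of all genes did so (65.8% of genes up to 1000 nt, 55.0% from 1001 to 1500 nt and 41.5% from 1501 to 2000 nt, the lengths of 26 of these 35), and below all controls for 1 member, Psmd11, where 22.1% of all genes did so.

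The 2 EpoR-null embryos differed in size of change more than the controls differed among themselves. EpoR-null 2 had the higher CPM in 33 of 35 members, while over all genes it had the higher CPM in 6245 of 12703. The summed CPM of the 39 genes was 6429, 6629 and 6584 in the controls, 7051 in EpoR-null 1 and 8649 in EpoR-null 2. With EpoR-null 1 left out the median log2 fold change of the members was 0.48, against 0.0122 over all genes. With EpoR-null 2 left out the median of the members was 0.14, against 0.0036 over all genes, and 28 of 35 were above 0. In those fits the single EpoR-null sample is assumed to vary as the controls do.

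**Figure D1:**
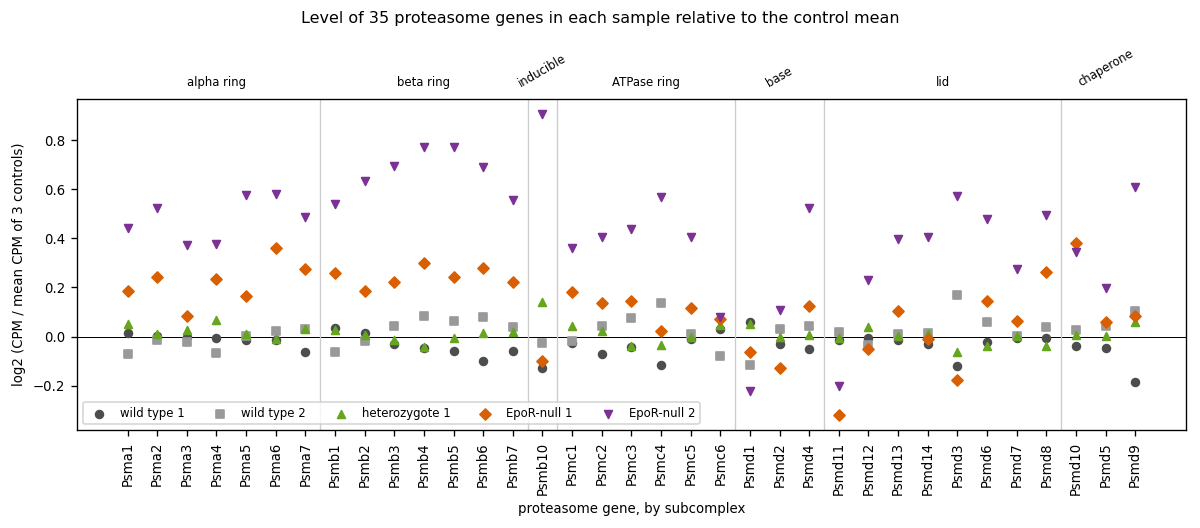
Log2 ratio of the CPM of each of the 35 tested genes to the mean of the 3 controls (vertical axis), one symbol per sample, with genes along the horizontal axis grouped by subcomplex. Both EpoR-null samples lie above all controls in 14 of 14 alpha and beta ring genes and in 10 of 17 genes of the regulatory particle, and Psmd11 is the gene where both lie below. Over all genes tested both lie above in 21.2% and below in 22.1%.

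The alpha ring genes were higher in both EpoR-null samples than in any control in all 7 cases, with a median log2 fold change of 0.39. Of all genes from 1001 to 1500 nt, which holds the ring's median length of 1201 nt, 55.0% were so. Psma6, a structural subunit of that ring (chr12:55384222-55418454, plus strand, GRCm38), had 175.8, 180.6 and 176.5 CPM in wild type 1, wild type 2 and the heterozygote, and 228.4 and 265.4 CPM in EpoR-null 1 and 2. The controls lay within 5 CPM of each other and both EpoR-null samples were above them. The control mean of 177.6 ± 2.57 CPM (SD, n = 3) compared with 246.9 ± 26.2 CPM (SD, n = 2) without the receptor, a log2 fold change of 0.48 (SE 0.14) with an FDR of 0.0181 in edgeR's exact test. It also passed a stricter rule of p under 0.001 with FDR under 0.05, which 0.929% of all genes passed in the higher direction. The call for Psma6 was lost when any 1 control was left out (FDR 0.167 to 0.359) and kept when either EpoR-null sample was left out (FDR 1.79e-04 and 0.0226).

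The smallest change of the alpha ring was in Psma3, with 207.7, 204.8 and 211.9 CPM in the controls and 220.6 and 269.6 CPM in EpoR-null 1 and 2. EpoR-null 1 was only just above the heterozygote, and the log2 fold change of 0.24 (SE 0.15) had an FDR of 0.405. The other alpha genes, Psma1, Psma2, Psma4, Psma5 and Psma7, lay between these with log2 fold changes of 0.31 to 0.39 and FDRs of 0.0823 to 0.202. Psma2 illustrates how tight the controls were: its CPM was 160.1, 158.6 and 161.1 in controls and 189.3 and 230.0 in EpoR-null 1 and 2. Summed over the ring, the level was 1285, 1282 and 1321 CPM in controls and 1511 and 1806 CPM in EpoR-null 1 and 2, a ratio of means of 1.28.

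The beta ring had the largest median change of the complex, with both EpoR-null samples above all controls in 7 of 7 genes and a median log2 fold change of 0.48. Of all genes up to 1000 nt, which holds the ring's median length of 899 nt, 65.8% were above all controls. Psmb4, a non-catalytic subunit that the study names (chr3:94884093-94886961, minus strand, GRCm38), had 154.3, 168.9 and 154.7 CPM in wild type 1, wild type 2 and the heterozygote, and 196.3 and 272.4 CPM in EpoR-null 1 and 2. The groups did not overlap, and the gap between the EpoR-null embryos was larger than that between EpoR-null 1 and the controls. The control mean of 159.3 ± 8.35 CPM (SD, n = 3) compared with 234.3 ± 53.8 CPM (SD, n = 2) without the receptor, a log2 fold change of 0.56 (SE 0.19) with an FDR of 0.0429 in edgeR's exact test. This call was lost when any 1 control (FDR 0.180 to 0.446) or EpoR-null 2 (log2 fold change 0.30, FDR 0.111) was left out, and with no filter on low counts (FDR 0.0895).

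The catalytic subunits followed the same order of samples. Psmb5, which cuts after hydrophobic residues, had 93.5, 101.6 and 96.8 CPM in controls and 115.1 and 166.2 CPM in EpoR-null 1 and 2, a log2 fold change of 0.53 (SE 0.20) with an FDR of 0.0718. Psmb6, which cuts after acidic residues, had 187.1, 212.2 and 202.4 CPM in controls and 243.2 and 323.7 CPM in EpoR-null 1 and 2 (log2 fold change 0.50, SE 0.18, FDR 0.0667). Psmb7, which cuts after basic residues, had 243.9, 261.1 and 257.6 CPM in controls and 296.5 and 373.8 CPM in EpoR-null 1 and 2 (log2 fold change 0.40, SE 0.16, FDR 0.119). None of these 3 passed edgeR's exact test, DESeq2 called all 3 higher (FDR 0.0333, 0.0181 and 0.0281), and in each the lower EpoR-null sample was above the highest control. Nek6 on the opposite strand overlaps 34.9% of the exonic bases of Psmb7, and the annotation names 1 pseudogene of Psmb5, 2 of Psmb6 and 1 of Psmb7, so reads of these genes may be incompletely assigned. The structural subunits Psmb1, Psmb2 and Psmb3 had log2 fold changes of 0.41, 0.43 and 0.48 with FDRs of 0.0846, 0.129 and 0.0903. Summed over the 7 genes, the beta ring had 1126, 1183 and 1158 CPM in controls and 1371 and 1817 CPM in EpoR-null 1 and 2, a ratio of means of 1.38, with no test made of a sum.

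The core subunits that replace the standard ones in immune tissue, thymus or testis were near or below detection. Psmb8, the inducible counterpart of Psmb5, had 1, 1 and 0 reads in controls and 1 and 0 in EpoR-null 1 and 2. Psmb9, the counterpart of Psmb6, had 4, 1 and 1 against 2 and 3 reads. The thymus subunit Psmb11 had 5, 14 and 6 against 3 and 17 reads. The testis subunit Psma8 had 4, 8 and 5 against 3 and 3 reads. These 4 genes were not tested, since none exceeded 1 CPM, and at this depth no difference between the groups could be read from them. Psmb10, the inducible counterpart of Psmb7, was the exception and had 139, 259 and 160 reads in controls and 116 and 334 in EpoR-null 1 and 2, or 5.74, 6.17 and 6.92 against 5.86 and 11.8 CPM. EpoR-null 1 fell among the controls and EpoR-null 2 above them, and the log2 fold change of 0.49 (SE 0.41) did not pass (FDR 0.533). Per kilobase of transcript Psmb10 reached 4.79 CPM in controls, beside 219.1 for Psmb7.

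Promoter sequences are shown for the members above with a match to a factor linked to proteasome genes, and for the beta gene that was called and the Psmd gene that was lower, for comparison. The antioxidant response element (letters TGACNNNGC) is bound by Nfe2l1, the factor known to raise proteasome genes when degradation fails, and by Nfe2l2. Nfe2l1 is often called by the same short name as Nrf1, the nuclear respiratory factor, which binds CGCATGCG and is a different protein. The stretches are from RefSeq (GRCm38.p6), 120 bases 5′ to 3′ on the gene's strand, ending just before the RefSeq start except for Psma2, with matches in capitals. Those of Psmb5 (chr14:54617996-54618115, minus strand), Psmb6 (chr11:70525237-70525356, plus), Psmb4 (chr3:94886959-94887078, minus) and Psmd11 (chr11:80428495-80428614, plus) are marked for the response element, and that of Psma2 (chr13:14613042-14613161, plus, from 200 to 81 bases before the start) for the Nrf1 letters:
Psmb5: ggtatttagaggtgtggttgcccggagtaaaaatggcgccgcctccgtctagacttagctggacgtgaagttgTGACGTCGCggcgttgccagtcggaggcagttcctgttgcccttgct
Psmb6: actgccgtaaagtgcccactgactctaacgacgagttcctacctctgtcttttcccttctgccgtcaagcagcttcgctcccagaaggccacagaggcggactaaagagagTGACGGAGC
Psmb4: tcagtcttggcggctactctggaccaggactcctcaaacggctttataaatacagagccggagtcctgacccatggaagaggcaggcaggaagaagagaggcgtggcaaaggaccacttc
Psmd11: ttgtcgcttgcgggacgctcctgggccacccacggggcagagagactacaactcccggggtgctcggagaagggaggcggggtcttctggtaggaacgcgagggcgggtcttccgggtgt
Psma2: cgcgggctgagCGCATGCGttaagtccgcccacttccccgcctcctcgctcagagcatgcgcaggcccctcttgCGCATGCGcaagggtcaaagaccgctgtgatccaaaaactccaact
The match began 47 bases before the start in Psmb5 and 9 bases before it in Psmb6, and those letters were not in the windows of Psmb4 and Psmd11.

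Over both strands and the 250 bases before the start, the response element letters were found in 5 of the 32 members with a RefSeq window, Psmb5, Psmb6, Psmc6, Psmd9 and Psmd12, or 15.6%. They were found in 14.2% of 9062 tested genes and in 10.2% of all 32851 windows. The Nrf1 letters were in 1 of 32 members, Psma2, or 3.13%, against 3.72% of tested genes and 1.55% of all windows, and the same letters extended by a G before and a C after, which overlap them, were also in Psma2 alone, against 1.95% of tested genes and 0.782% of all windows. The letters CCAAT, bound by the factor NF-Y, were in 13 of 32 members, or 40.6%, against 41.0% of tested genes and 33.9% of all windows. The shares of the members were thus close to those of tested genes for the response element and CCAAT, and the Nrf1 letters rested on 1 gene. The 5 genes with the response element letters had log2 fold changes of 0.53 (Psmb5), 0.50 (Psmb6), 0.37 (Psmd9), 0.10 (Psmd12) and 0.08 (Psmc6), or from near 0 to near the highest value of the members.

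The ATPase ring changed less than the core. Both EpoR-null samples were above all controls in 5 of 6 Psmc genes, and the median log2 fold change was 0.28. Of all genes from 1501 to 2000 nt, which holds the ring's median length of 1613.5 nt, 41.5% were above all controls. No Psmc gene was called or had an unadjusted p under 0.05 in edgeR's exact test, while DESeq2 called 1 of them, Psmc1. Psmc4 had the largest value, with 216.2, 257.4 and 228.1 CPM in controls and 237.9 and 346.9 CPM in EpoR-null 1 and 2, and EpoR-null 1 fell below wild type 2 (log2 fold change 0.32, SE 0.21, FDR 0.412). Psmc6 had the smallest, with 236.3, 219.0 and 239.3 CPM in controls and 243.6 and 245.0 CPM in EpoR-null 1 and 2 (log2 fold change 0.08, SE 0.14, FDR 0.803). The EpoR-null samples of Psmc6 nearly coincided, and they exceeded the heterozygote by less than the controls differed. Psmc1, Psmc2, Psmc3 and Psmc5 had log2 fold changes of 0.27 to 0.30 and FDRs of 0.257 to 0.323. Part of Psmc3, 4.75% of its exonic bases, overlaps Slc39a13 on the other strand. The ring summed to 1368, 1432 and 1411 CPM in controls and 1521 and 1831 CPM in EpoR-null 1 and 2, a ratio of means of 1.19.

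The summed level of the non-ATPase subunits of the base was the most nearly equal between groups of any subcomplex, although its genes differed. Psmd2, the largest member by CPM and a scaffold that receives ubiquitin-binding shuttles, had 597.9, 623.5 and 609.1 CPM in controls and 558.1 and 658.7 CPM in EpoR-null 1 and 2. The EpoR-null samples lay on either side of the controls, and the log2 fold change was -0.0042 (SE 0.15, FDR 0.995). Psmd1, the second scaffold, had 373.6, 331.7 and 371.4 CPM in controls and 343.5 and 307.9 CPM in EpoR-null 1 and 2, a log2 fold change of -0.14 (SE 0.15, FDR 0.654), and EpoR-null 1 overlapped the controls. Psmd4, a ubiquitin receptor, differed from both, with 152.5, 163.0 and 158.7 CPM in controls and 172.5 and 227.5 CPM in EpoR-null 1 and 2 (log2 fold change 0.34, SE 0.17, FDR 0.243). The 3 genes summed to 1124, 1118 and 1139 CPM in controls and 1074 and 1194 CPM in EpoR-null 1 and 2, a ratio of means of 1.01 that fell below 1 (log2 -0.04) when library size alone was used for scaling.

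The lid held the widest range of the regulatory particle. Psmd8, a lid subunit, had 150.3, 155.2 and 147.1 CPM in controls and 180.8 and 212.4 CPM in EpoR-null 1 and 2, the highest log2 fold change of the Psmd genes at 0.38 (SE 0.14, FDR 0.0835). Psmd11, a lid subunit that contacts the core (chr11:80428615-80473248, plus strand, GRCm38), was the lowest, with 170.7, 174.3 and 171.7 CPM in controls and 138.0 and 150.0 CPM in EpoR-null 1 and 2. Both EpoR-null samples were below all controls and the controls spanned less than 4 CPM. Means were 172.2 ± 1.85 CPM (SD, n = 3) against 144.0 ± 8.47 CPM (SD, n = 2). The log2 fold change of -0.26 (SE 0.13) did not pass edgeR's exact test (FDR 0.259), although DESeq2 called it lower (FDR 0.0264). Psmd11 and Psmd1 were the members tested in which EpoR-null 2 and EpoR-null 1 were both under the control mean.

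The other lid genes were mixed. Psmd6, Psmd7 and Psmd13 had both EpoR-null samples above all controls, with log2 fold changes of 0.32, 0.17 and 0.26. Psmd14, the deubiquitinase, had 149.1, 153.9 and 153.5 CPM in controls and 151.3 and 201.7 CPM in EpoR-null 1 and 2 (log2 fold change 0.21, FDR 0.526). Psmd3 was the least even, with 233.2, 285.1 and 242.6 CPM in controls and 224.7 and 377.2 CPM in EpoR-null 1 and 2 (log2 fold change 0.25, FDR 0.642), and Psmd12 had 168.9, 165.5 and 174.5 against 163.7 and 199.0 CPM (log2 fold change 0.10, FDR 0.774). In these 3 genes EpoR-null 1 was within or below the range of the controls and EpoR-null 2 above it, and with EpoR-null 2 left out their log2 fold changes turned to -0.01, -0.18 and -0.05. The lid summed to 1384, 1458 and 1403 CPM in controls and 1413 and 1811 CPM in EpoR-null 1 and 2, a ratio of means of 1.14. Psmd5, Psmd9 and Psmd10 are not subunits of the finished particle but chaperones that assemble its base, and they stood apart by level. Psmd10, known also as an oncoprotein of liver, had 23.4, 24.4 and 24.1 CPM in controls and 31.3 and 30.5 CPM in EpoR-null 1 and 2, a log2 fold change of 0.36 (SE 0.18, FDR 0.218) with close values within each group. Psmd5 and Psmd9 had log2 fold changes of 0.13 and 0.37 with FDRs of 0.627 and 0.385.

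**Figure D2:**
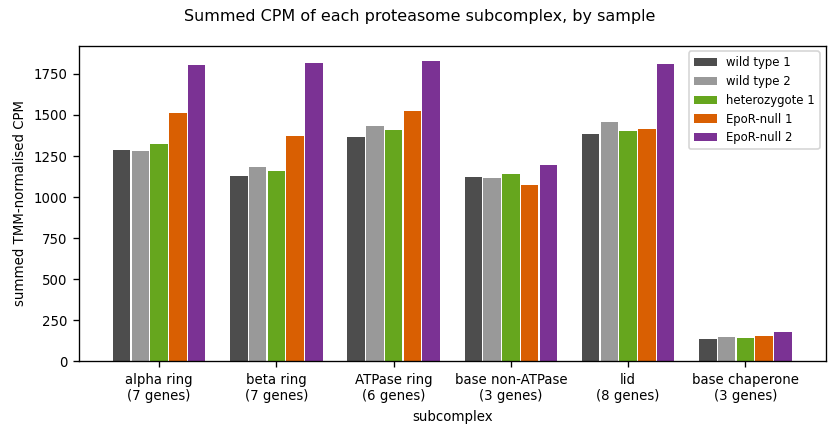
Summed TMM-normalised CPM (vertical axis, from 0) of the tested genes of each subcomplex, one bar per sample. The beta ring goes from 1126 to 1183 CPM in controls to 1371 and 1817 CPM in EpoR-null 1 and 2, while the 3 non-ATPase base genes stay at 1074 to 1194 CPM in all 5 samples.

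Core and regulatory genes were compared within each sample, where differences in depth cancel. The 14 alpha and beta ring genes had a median log2 fold change of 0.40 and none overlapped between the groups, where 7201 of 12703 genes tested did. The 17 genes of the ATPase ring, base and lid had a median of 0.26, with 10 above all controls, 1 below and 6 overlapping. The median transcript was 1162.5 nt in the core and 1756 nt in the regulatory particle. Both EpoR-null samples lay above all controls in 55.0% of genes from 1001 to 1500 nt and 41.5% from 1501 to 2000 nt. The summed CPM of the core over that of the regulatory particle was 0.622, 0.615 and 0.627 in wild type 1, wild type 2 and the heterozygote, against 0.719 and 0.749 in EpoR-null 1 and 2. The controls were close together and both EpoR-null samples were higher, EpoR-null 1 included. The same ratio against the ATPase ring alone was 1.76, 1.72 and 1.76 in controls and 1.89 and 1.98 in EpoR-null 1 and 2, and against base and lid 0.961, 0.957 and 0.975 against 1.16 and 1.21. The lid over the ATPase ring was 1.01, 1.02 and 0.994 against 0.929 and 0.989, with both EpoR-null samples lower. The beta ring over the alpha ring was 0.876, 0.923 and 0.877 against 0.908 and 1.01, and here the groups overlapped. No test was made of these ratios, since they sum members chosen together.

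Per length of transcript the genes of the finished particle stood well above the chaperones that assemble it. In controls, the CPM per kilobase ran from 54.9 for Psma2 and 60.5 for Psmd11 to 224.5 for Psma7 and 251.3 for Psmb6 over the 31 genes of the alpha and beta rings, ATPase ring, base and lid. The base chaperones were lower, at 12.3 for Psmd9, 16.8 for Psmd10 and 19.8 for Psmd5. Psmd2, the highest by CPM, reached 206.1 CPM per kilobase and ranked below Psmb7, Psma7 and Psmb6. These levels use 1 annotated transcript per gene, and which forms this tissue uses was not tested.

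The size of the change followed the length of the transcript, in the members and in all genes. The median transcript of a beta ring gene was 899 nt, of an alpha ring gene 1201 nt, of an ATPase gene 1613.5 nt, of a lid gene 1742.5 nt and of a non-ATPase base gene 2961 nt, against 3129.5 nt over all genes. Across the 35 members the log2 fold change and the length had a Spearman rho of -0.74, and across 12584 genes with an annotated length -0.64. Genes are not independent replicates, and all points share the same 5 libraries. In the class up to 1000 nt, 711 genes had a median log2 fold change of 0.47 and 16.9% were called higher, beside a median of 0.48 for the 5 members there. From 1001 to 1500 nt the medians were 0.37 for all genes and 0.36 for 11 members, and 6.08% of genes were called higher. From 1501 to 2000 nt they were 0.26 and 0.28 for 10 members. From 2001 to 3000 nt the median was 0.13 for all genes and 0.24 for 7 members, and from 3001 to 5000 nt -0.05 and -0.0044 for 2 members. No member was longer than 5000 nt, where the median of all genes was -0.35 and 21.6% were called lower. The medians of the members were thus close to those of all genes of like length in every class but that from 2001 to 3000 nt. That class ran from -0.26 for Psmd11 to 0.39 for Psma2. Psma2 and Psma3 fall in it by the length of 1 annotated transcript each.

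**Figure D3:**
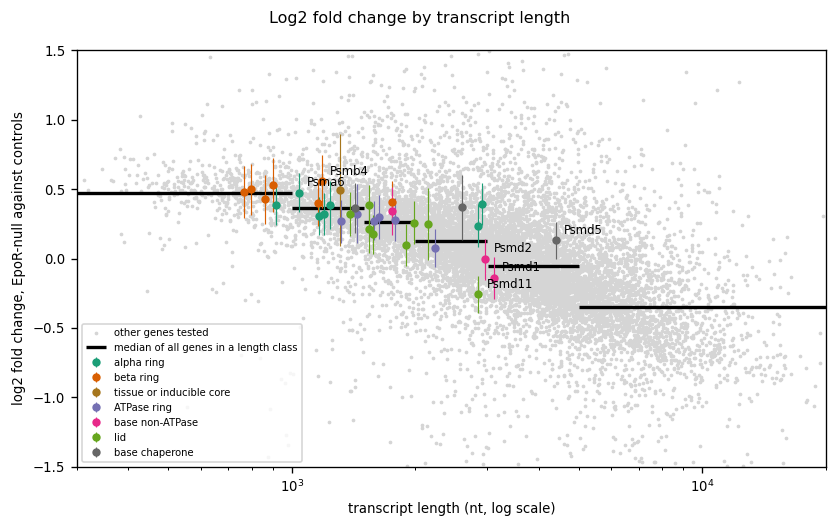
Log2 fold change of EpoR-null against control samples (vertical axis) by transcript length in nt (horizontal axis, log scale), for all genes tested within the plotted range (grey points) and the 35 proteasome genes (coloured by subcomplex, bars are SE). Black lines are the medians of all genes in 6 length classes, from 0.47 up to 1000 nt to -0.35 above 5000 nt, and most members lie near them.

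When each sample's trend on transcript length and GC content was removed by offsets in a likelihood-ratio fit of edgeR, the lean of the members became small. Their median log2 fold change was 0.06 against 0.01 over all genes, 25 of 35 were above 0 and none was called, with a lowest FDR of 0.183 for Psma2. At an unadjusted p under 0.05 that fit had 3 members and 1045 of 12584 genes. The same fit without offsets had 17 members and 2550 of 12703 genes, and called 2 members. Psma6 had a log2 fold change of 0.15 (FDR 0.991) and Psmb4 of 0.18 (FDR 0.948) with offsets, so both calls ended. The medians with offsets were 0.07 for the alpha ring, 0.07 for the beta ring, 0.01 for the ATPase ring and 0.01 for the lid. The non-ATPase base genes were at -0.12 (Psmd1), -0.06 (Psmd2) and 0.06 (Psmd4). The core medians stayed above those of the ATPase ring and lid by a smaller gap, which was not tested. Psma2 went from 0.39 to 0.47, Psma3 from 0.24 to 0.29, Psmb1 from 0.41 to 0.26 and Psmd11 from -0.26 to -0.28 (FDR 0.379). The annotated transcripts used for Psma2 and Psma3 are 2911 and 2846 nt, against 914 to 1239 nt for the other alpha genes. Their offsets rest on those lengths, and which forms this tissue uses was not tested. Psma7, Psmc3, Psmc4, Psmc5, Psmd3, Psmd7 and Psmd12 turned from above to below 0, at -0.0036 to -0.08. A quasi-likelihood F-test of edgeR without offsets also called no member, with FDRs of 0.0774 for Psma6 and 0.122 for Psmb4, and no gene of 12703, while 3052 genes and 20 members had an unadjusted p under 0.05.

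**Figure D4:**
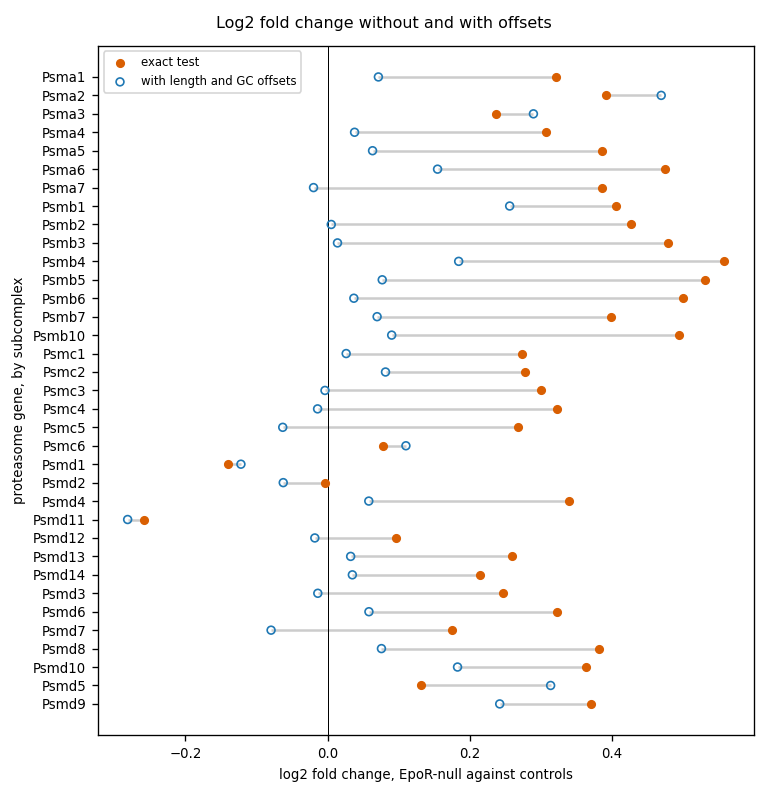
Log2 fold change of each of the 35 tested proteasome genes (one per line, grouped by subcomplex) in the exact test (filled) and after length and GC offsets (open). The median goes from 0.32 to 0.06, and Psma2, Psma3, Psmd1 and Psmd11 are among the genes that move least.

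Genes that act with the proteasome were mixed. Over all genes tested 1.81% were called higher and 5.49% lower. Of 6 assembly chaperones of the core and its regulators, 5 were in the tables and tested, with a median log2 fold change of 0.47 and 1 called higher. This was Pomp, which completes the core, with 108.4, 118.2 and 119.1 CPM in controls and 143.7 and 175.3 CPM in EpoR-null 1 and 2 (log2 fold change 0.47, SE 0.16, FDR 0.0363 in edgeR's exact test). The call for Pomp was lost without any 1 control (FDR 0.197 to 0.471), without EpoR-null 2 (0.32, FDR 0.0625), with no filter on low counts (FDR 0.0938) and with the offsets (0.22, FDR 0.696). The highest and lowest of that list, Psmg3 at 0.52 and Psmg1 at 0.33, did not pass. Of all genes from 1501 to 2000 nt, the class of Pomp, 1.55% were called higher. Among 14 activators, inhibitors and accessory proteins, 3 were called higher and 1 lower, with a median of 0.10. Psme1 and Psme2, which form an ATP-independent cap of the core, had 25.8, 25.1 and 26.6 against 35.8 and 38.8 CPM (log2 fold change 0.53, FDR 0.0324) and 22.8, 23.7 and 26.5 against 38.7 and 38.0 CPM (0.66, FDR 0.00748). In both genes the EpoR-null samples were close to each other and clear of the controls. Shfm1, the gene of a small lid subunit outside the Psmd names, had 105.5, 105.6 and 112.2 against 146.2 and 173.4 CPM (0.57, FDR 0.00327). The gene called lower was AI314180, which encodes the adaptor Ecm29 that ties core to regulatory particle, with 180.4, 168.4 and 181.1 against 130.9 and 113.3 CPM (-0.53, FDR 0.00819). Its transcript is 7045 nt long, while those of Psme1, Psme2 and Shfm1 are 1112, 962 and 1472 nt. Of all genes above 5000 nt, 21.6% were called lower. Of those up to 1000 nt 16.9% were called higher, and of those from 1001 to 1500 nt 6.08%. With length and GC offsets the log2 fold changes of Psme1, Psme2 and AI314180 were 0.14, 0.26 and -0.10 (FDR 1, 0.925 and 1), so these calls ended. That of Shfm1 stayed past the threshold in the likelihood-ratio test with offsets, though not in the F-test with them (0.48, FDR 0.174). The 4 calls were lost without any 1 control (FDR 0.0528 to 0.453), and that of Psme1 also without EpoR-null 2 (FDR 0.0669), with library size only (FDR 0.0619) and with no filter (FDR 0.0988).

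Uba6, an enzyme that activates ubiquitin and has a transcript of 6590 nt, was called lower, with 69.6, 62.9 and 66.6 CPM in controls and 36.1 and 28.5 CPM in EpoR-null 1 and 2 (-1.04, FDR 3.58e-06). Of 11 shuttle and segregase genes 1 was called, lower: Ddi2, the protease that releases Nfe2l1 from the membrane, with 29.1, 29.4 and 26.5 CPM in controls and 14.6 and 12.5 CPM in EpoR-null 1 and 2 (-1.07, FDR 9.37e-05). The median of that list was -0.07, and its highest value was 0.36 for Nsfl1c. Of 12 genes of the Nfe2l1 pathway, 11 were tested, 2 were called lower, Ddi2 again and Mafg, a partner of Nfe2l1 on DNA (-0.89, FDR 0.0028), and none higher, with a highest value of 0.44 for Maff (FDR 0.57). Over all genes tested 5.49% were called lower and 1.81% higher. Nfe2l1 itself had 172.4, 189.8 and 178.2 CPM in controls and 148.6 and 153.5 CPM in EpoR-null 1 and 2, both below all controls but not called by edgeR's exact test (-0.25, SE 0.13, FDR 0.281), while DESeq2 called it lower (FDR 0.0498), among 4 genes of the list that it called lower. Nfe2l2 was at 0.07 (FDR 0.901) and Nrf1 at -0.02 (FDR 0.961), with 84.9, 92.5 and 84.9 against 80.6 and 91.6 CPM. Ddi2, Nfe2l1 and Mafg have transcripts of 9553, 4654 and 4923 nt, longer than that of any member. Of all genes above 5000 nt, the class of Uba6 and Ddi2, 21.6% were called lower. Of those from 3001 to 5000 nt, the class of Mafg, 2.12% were. With the offsets Ddi2 was at -0.53 and no longer called (FDR 0.194). Uba6 and Mafg were still called by the likelihood-ratio test with offsets, though not by the F-test with them (-0.61, FDR 0.142, and -0.78, FDR 0.160). Leaving out wild type 1 ended the call for Ddi2 (FDR 0.0622), and leaving out any 1 control that for Mafg (FDR 0.0623 to 0.157).

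Other large complexes are given as a yardstick. The COP9 signalosome and the initiation factor eIF3 are built on the same plan as the proteasome lid. Of 9 COP9 genes 1 was called, Cops6, higher (0.46, FDR 0.0072), with a median of 0.23 and a lowest value of -0.10 for Cops2. Over all genes tested 1.81% were called higher and 5.49% lower. Of those from 1501 to 2000 nt, the class of Cops6, 1.55% were called higher. Of 13 eIF3 genes 12 were tested, Eif3f was called higher (0.50, FDR 0.0357) and Eif3a, with a transcript of 5125 nt, lower (-0.58, FDR 0.0128), with a median of 0.26. Of all genes above 5000 nt, 21.6% were called lower. Of those from 2001 to 3000 nt, the class of Eif3f, 0.462% were called higher. The calls for Cops6, Eif3f and Eif3a ended with the offsets (0.26, 0.41 and -0.33; FDR 0.401, 0.130 and 0.202) and without any 1 control (FDR 0.0936 to 0.431), and that for Eif3f also without EpoR-null 2 (0.31, FDR 0.0785) and with no filter (FDR 0.0780). None of the 8 genes of the CCT chaperonin was called by edgeR's exact test or by DESeq2, none had an unadjusted p under 0.05, and their median was 0.13, from 0.03 (Cct6a) to 0.22 (Cct7). Respiratory complex I, with a median transcript of 875 nt against 1541 nt for the proteasome genes, had 20 of 35 genes called higher and a median of 0.53, beside the 16.9% and 0.47 of all genes up to 1000 nt. The difference between these lists was not tested. Those 20 were Ndufa1, Ndufa2, Ndufa3, Ndufa4, Ndufa5, Ndufa8, Ndufa11, Ndufa12, Ndufa13, Ndufb2, Ndufb4, Ndufb5, Ndufb7, Ndufb8, Ndufb9, Ndufb11, Ndufc1, Ndufs3, Ndufs4 and Ndufv3, and the list ran from -0.01 for Ndufs1 to 0.71 for Ndufa3. Of 75 cytosolic ribosomal protein genes 14 were called higher, with a median of 0.46 and a range from 0.17 for Rpl34 to 0.73 for Rps29. Their median transcript was 833 nt, and of all genes up to 1000 nt 16.9% were called higher, with a median of 0.47.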

How the data were processed

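Poly(A) RNA of the neural tubes was sequenced as single-end reads. Per the labels and the study's methods, Trimmomatic 0.32, TopHat2 and HTSeq 0.6.1 were used by the authors for trimming, alignment and counting, and 1 table of raw counts per gene, not normalized, was deposited for each sample. The submitters' processing notes name mm9 and the methods name hg19; the annotation and strand setting are not given in the sources used here. The lines of each table that name no gene were left out. Among them reads on no gene came to 8.12% to 11.0% and ambiguous reads to 1.85% to 2.31%. Both are percentages of the sum of reads on genes, reads on no gene and ambiguous reads.

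Samples were grouped by their genotype labels. The controls are described as littermates, but which samples shared a litter is not given in the sources used here, so p-values measure the spread between these samples. As in the study, EpoR-null was compared with all controls by TMM and exactTest of edgeR. Tagwise dispersions and edgeR 4.0.16 (R 4.3.3) were used here, with Benjamini-Hochberg adjustment over the genes that exceeded 1 CPM in 2 or more samples. DESeq2 1.42.0 and the fits in the closing section were alternatives, and scripts were tested on simulated data. There 28.5% of the genes called by the exact test at an FDR under 0.05 had not been changed. The share was 35.7% with DESeq2 and 8.065% with the F-test without block. Of the genes changed 1.5-fold, the exact test recovered 25.4%, DESeq2 41.8% and the F-test 2.985%. SEs come from the negative binomial fit. Lengths, GC and positions come from GENCODE M21 (GRCm38), matched by symbol for 22804 of 23284 genes and all 39 members, and offsets from loess trends of span 0.5. Promoters are RefSeq windows, found for 32 members. Members and lists were chosen with earlier results of these data known. Values in every sample are given for called members, the extremes of each family and the catalytic subunits with their counterparts; related genes are named where called, at an extreme of a list, or as a regulator, except that some called genes of the ubiquitin and ribosomal lists are not reported here. Other members shown with values in every sample were chosen after their values were seen.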

Additional observations from a re-analysis of the deposited data

How the results depend on the processing

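The counts of calls depended on the method. Depth limits the inducible and tissue subunits, with 0 to 17 reads for those not tested. Members called higher numbered 2 in the exact test, 13 with DESeq2 (1 lower), 1 with no filter on low counts, 1 under the stricter rule, and 0 with a quasi-likelihood F-test with no block, with a replicate block, and in each fit with length and GC offsets. All genes called higher and lower numbered 575 and 1162 with DESeq2, 104 higher with no filter, 118 higher under the stricter rule, 114 higher with the replicate block, 0 and 0 by the F-test without it, 53 and 185 in the likelihood-ratio test with offsets, and 0 and 0 by the F-test with offsets, with or without the block. Leaving out 1 sample at a time gave 0 to 27 members higher, 4 to 1796 genes higher and 111 to 1982 lower, the highest counts without EpoR-null 1 and the lowest without wild type 1.

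The pairing in the replicate block rests only on the number in the sample label. Across genes, wild type 1 minus 2 and EpoR-null 1 minus 2 had a Pearson r of 0.43 and a rho of 0.53. The replicate numbers thus tracked a difference shared in part by both genotypes, and its source was not tested. With the replicate block the F-test called 114 genes higher and 581 lower but no member (lowest FDR 0.053), and Cct6a turned to -0.0049.

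Median log2 fold changes with one sample left out ran from 0.23 to 0.49 (alpha ring), 0.24 to 0.69 (beta ring), 0.12 to 0.41 (ATPase ring), -0.065 to 0.11 (non-ATPase base), 0.026 to 0.40 (lid) and 0.079 to 0.38 (base chaperones). Log2 ratios of summed CPM ran from 0.22 to 0.48, 0.25 to 0.65, 0.12 to 0.38, -0.070 to 0.083, -0.0025 to 0.36 and 0.12 to 0.33 in the same order, and that of the base was -0.042 with library size only. With length and GC offsets the medians of the alpha, beta, ATPase and lid genes were 0.0715, 0.0697, 0.0113 and 0.0094 in the likelihood-ratio test, 0.0714, 0.0697, 0.0113 and 0.0093 in the F-test, and 0.0634, 0.0524, 0.0103 and -0.025 with offsets and replicate block.

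Log2 fold changes of single genes that turned sign were, with offsets in the likelihood-ratio test, the F-test and the F-test with replicate block, Psma7 (-0.0197, -0.0195, -0.0186), Psmc3 (-0.0036, -0.0036, -0.0077), Psmc4 (-0.014, -0.0141, -0.0536), Psmc5 (-0.063, -0.063, -0.0656), Psmd3 (-0.0137, -0.0137, -0.0752), Psmd7 (-0.0794, -0.0794, -0.0816), Psmd12 (-0.0179, -0.0181, -0.0424), Psmg1 (-0.0724, -0.073, -0.1095), Cops2 (0.0555, 0.0555, 0.0365) and Cct6a (-0.0347, -0.0347, -0.0658). In the last of these fits Psmb2 (-0.0073), Psmb3 (-0.0017), Psmd14 (-0.0075), Psmg3 (-0.0168) and Nsfl1c (-0.0047) turned too, and Cct6a was -0.027 with library size only and -0.009 with no filter. With one sample left out, Psmb10 ranged from -0.10 to 0.91, Psmd2 from -0.13 to 0.11, Psmd3 from -0.18 to 0.57, Psmd12 from -0.053 to 0.23, Psmd14 from -0.011 to 0.41, Psmg1 from -0.032 to 0.61, Nfe2l2 from -0.13 to 0.25, Nrf1 from -0.12 to 0.066, Cct6a from -0.15 to 0.18 and Cct7 from -0.062 to 0.45. The cause of these differences was not tested.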
